A study of Mus musculus with 12 samples.

Results

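The genes described here are the mouse enzymes of xenobiotic metabolism with a measurable signal: the cytochromes P450 of families 1 to 4 (Cyp1 to Cyp4), the UDP-glucuronosyltransferases (Ugt), the glutathione S-transferases (Gst) and the sulfotransferases (Sult). They were picked by symbol among 22180 genes with a named probe set, and a gene was kept when its mean log2 signal over the 12 arrays of the series was 3.65 or more. The symbols matched 119 genes, of which 61 were kept, out of 16654 genes that passed the same filter. The 61 members were 2 of 3 Cyp1 genes, 23 of 47 Cyp2, 0 of 7 Cyp3, 11 of 15 Cyp4, 1 of 8 Ugt, 17 of 18 Gst and 7 of 21 Sult genes. The mean over all arrays thus chose the members, and a gene that was high in only some groups could pass through those groups. Of the members, 54 had a mean of 3.65 or more in each of the 4 groups and 7 in only 1 to 3 groups, while 10 genes below the filter reached it in at least 1 group. Just inside the filter lay Cyp4a14 with a mean of 3.66, Gsto2 with 3.76 and Cyp2c23 with 3.81, and just outside it Cyp2c50 with 3.63, Cyp1a1 with 3.62 and Cyp2c29 with 3.57. A level on this platform depends on the probes as well as on the transcript, so levels are compared between samples and not between genes.

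Tumors of the colon and rectum had been induced in all mice with azoxymethane (AOM), a carcinogen, and dextran sulfate sodium (DSS), which injures and inflames the colon. The mice were wild type (Stat3wt) or lacked the transcription factor STAT3 in myeloid cells (Stat3dm, called deletion below), and laser-capture microdissection of paraffin-embedded material separated tumor tissue from stroma, which gave 4 groups of 3 samples. Each sample pooled 2 tumors of 1 mouse, and 50 ng of its RNA were amplified and hybridised to 1 Affymetrix array. The series asks which changes in the stroma depend on STAT3 in myeloid cells. The sources used here do not give the driver of the deletion, the share of myeloid cells it reached, or the age, sex and strain of the mice. Samples of 1 genotype with the same number may come from the same mouse, which the labels do not say, and p-values measure the spread between these samples.

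Foreign and endogenous small molecules are made more soluble in steps. Cytochromes P450 insert oxygen with electrons from NADPH (phase I), and transferases then attach glucuronic acid, glutathione or sulfate (phase II), after which transporters export the product. In the intestine these enzymes are found mainly in epithelial cells, and several are induced through the aryl hydrocarbon receptor, the pregnane X receptor PXR and the oxidative stress factor NRF2. Azoxymethane is itself turned into its reactive form by a cytochrome P450, CYP2E1.

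The 17 pairs of members that are direct neighbours in the genome hold 27 of the 61 members, and members of 2 such clusters recur in the results below. The pi class genes Gstp1, Gstp2 and Gstp3 lie side by side on chromosome 19, and Sult1b1 and Sult1d1 on chromosome 5. Their promoter windows are printed because neighbours in these clusters are close relatives, and the sequences show how far the regulatory regions are alike. Each window is the 250 bases before a RefSeq transcription start in GRCm38.p6, the most upstream one where a gene has several. It is given 5′ to 3′ on the minus strand, where all 5 genes lie. Capitals mark GCGTG, the core of the aryl hydrocarbon receptor site, and TGANTCA, the core of the AP-1 site, on either strand.
Gstp1, chr19:4037913-4038162: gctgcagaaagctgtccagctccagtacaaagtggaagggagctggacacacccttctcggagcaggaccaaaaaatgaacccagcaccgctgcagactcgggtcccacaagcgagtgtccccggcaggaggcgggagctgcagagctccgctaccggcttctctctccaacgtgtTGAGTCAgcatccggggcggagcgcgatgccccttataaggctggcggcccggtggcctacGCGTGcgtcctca
Gstp2, chr19:4042222-4042471: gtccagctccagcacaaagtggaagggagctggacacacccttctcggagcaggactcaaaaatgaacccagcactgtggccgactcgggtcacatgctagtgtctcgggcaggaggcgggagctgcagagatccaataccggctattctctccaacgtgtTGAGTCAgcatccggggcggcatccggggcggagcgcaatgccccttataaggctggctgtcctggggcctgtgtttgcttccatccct
Gstp3, chr19:4059448-4059697: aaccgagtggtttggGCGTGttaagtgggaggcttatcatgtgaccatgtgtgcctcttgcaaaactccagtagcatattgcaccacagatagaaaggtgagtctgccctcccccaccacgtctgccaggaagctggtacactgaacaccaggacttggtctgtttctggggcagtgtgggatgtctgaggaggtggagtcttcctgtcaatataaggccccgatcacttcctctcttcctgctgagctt
Sult1b1, chr5:87538196-87538445: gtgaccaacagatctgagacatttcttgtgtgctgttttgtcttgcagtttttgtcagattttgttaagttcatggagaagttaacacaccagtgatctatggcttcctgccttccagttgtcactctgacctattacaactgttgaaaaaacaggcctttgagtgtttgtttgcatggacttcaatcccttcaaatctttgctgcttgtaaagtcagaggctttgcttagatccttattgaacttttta
Sult1d1, chr5:87569007-87569256: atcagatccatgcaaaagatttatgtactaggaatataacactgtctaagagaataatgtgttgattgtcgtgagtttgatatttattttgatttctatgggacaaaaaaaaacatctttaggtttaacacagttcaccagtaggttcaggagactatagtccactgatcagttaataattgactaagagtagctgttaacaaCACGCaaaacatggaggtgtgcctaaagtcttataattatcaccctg

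In a global alignment the windows of Gstp1 and Gstp2 were identical at 78.1% of aligned positions, and both carry TGANTCA. The window of Gstp3 was identical to that of Gstp1 at 50.0% and to that of Gstp2 at 46.5% of positions, and it holds no TGANTCA. The printed windows of Sult1b1 and Sult1d1 were identical at 44.4%, and a window of Sult1b1 that is not printed holds GCGTG. The promoter table held 61 windows for 49 of the members, and 12 members had none. GCGTG lay in 16 of these windows, or 26.2%, against 28.2% of 32851 windows of all genes. TGACNNNGC, the core of the antioxidant response element, lay in 3 windows (4.92%, against 10.2%), those of Cyp4f18, Gsta3 and Gstm7. TGANTCA lay in 5 windows (8.20%, against 6.75%), and no member window held 2 of these motifs in overlap. A match describes the letters of a window and is not a measured binding site.

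Arrays of 1 group correlated at 0.881 to 0.967, and their spread, the standard deviation (SD) of all log2 values, ran from 1.60 to 1.91, widest in wild type tumor 3 and deletion tumor 3. Log2 levels of Stat3 were 7.71 ± 0.44 (SD, n = 3) in wild type tumor, 7.35 ± 0.65 in wild type stroma, 7.44 ± 0.47 in deletion tumor and 7.36 ± 0.04 in deletion stroma. Whole tissue holds many cells outside the deletion, so these levels do not check the genotype labels. Markers of other cell types were checked against the tissue labels. All 14 epithelial markers lay lower in stroma than in tumor, 7 of them passing the test described below, but their mean log2 level in stroma was still 7.23 to 8.58, against 8.54 to 9.27 in tumor. The 8.58 was that of deletion stroma 1, within the tumor range, while deletion stroma 2 and 3 read 7.23 and 8.07. All 10 leukocyte markers, all 8 endothelial and 10 of 11 fibroblast markers lay higher in stroma, with 5, 4 and 3 passing; calls between tissues depended on single arrays, as given below. All 8 goblet cell markers and 9 of 13 markers of differentiated colonocytes lay lower in stroma, with 3 and 2 passing. Among all genes 53% lay lower in stroma, 47% higher, and 2.55% passed. In such samples fewer cells of a type and less RNA per cell cannot be told apart.

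Between tissues, the glutathione S-transferases and a few other conjugating enzymes lay lower in stroma than in tumor, and most cytochromes P450 lay slightly higher. The test was limma's moderated test over all genes with Benjamini-Hochberg adjustment at 0.05, and for the 6 stroma against the 6 tumor samples, averaged over genotypes, it called 0 of 61 members, against 424 of all genes (2.55%). The smallest adjusted p of a member was 0.0515, for Gstk1. An unadjusted p under 0.05 was found for 18 members (29.5%), against 22.3% of all genes. Of these, 13 lay lower in stroma (21.3%, against 15.1% of all genes) and 5 higher (8.20%, against 7.13%). A difference above 0 was found for 35 members (57.4%, against 47% of all genes), with a median of 0.07 on the log2 scale, against -0.03, but 41 members lay below 0 with the spread of each array as a covariate. Leaving out single arrays changed the count: 5 members passed without deletion tumor 1 (1297 of all genes) and 5 without deletion stroma 1 (574). Without wild type tumor 2 it was 3 (525), and without deletion stroma 3 it was 1 (177). With array weights 16 members passed (2641 of all genes). With sample numbers as replicate blocks 10 or 11 passed (1649 to 2187 of all genes), although the labels do not say that numbers pair samples. Over all genes the count was 0 without deletion tumor 2, deletion tumor 3 or wild type stroma 3, and 1297 without deletion tumor 1.

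**Figure D1:**
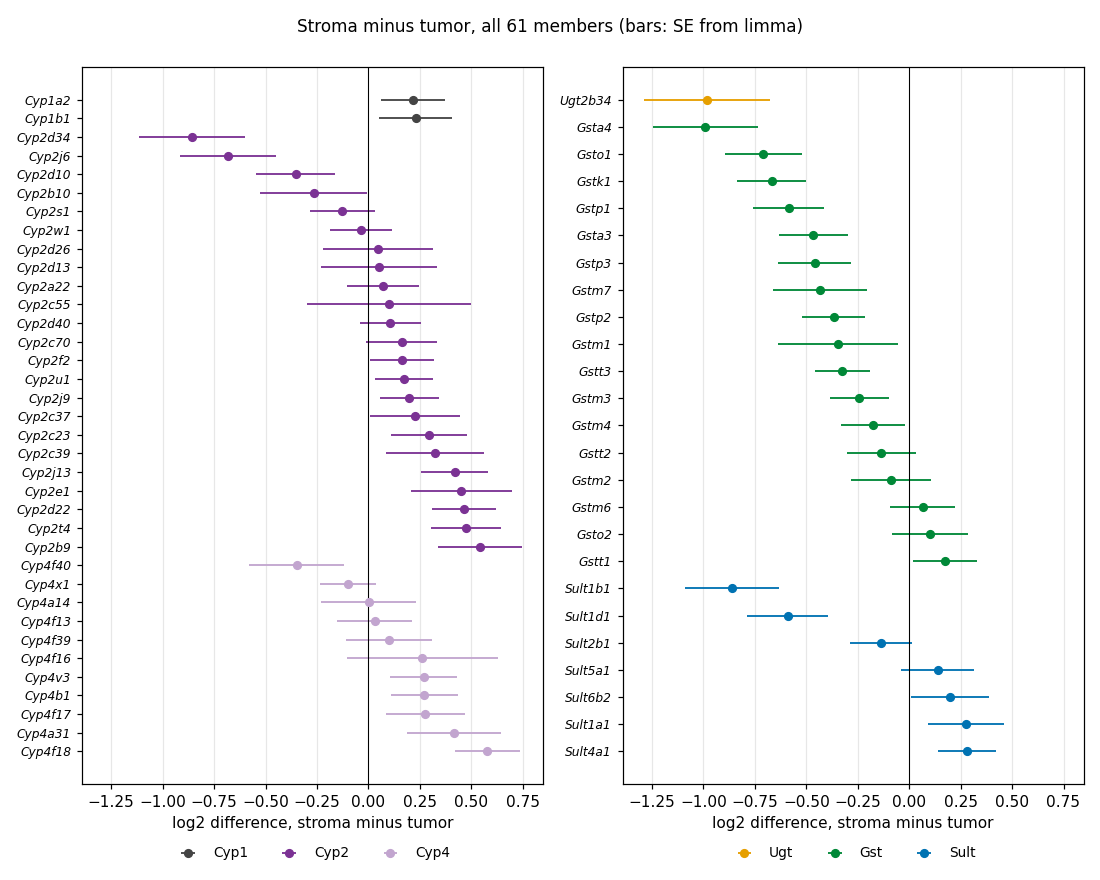
Log2 difference between stroma and tumor, averaged over genotypes, for each of the 61 members, with bars for the standard error from limma; colours mark enzyme families. Of the 17 Gst genes 14 lie left of 0, Ugt2b34, Gsta4, Sult1b1 and Cyp2d34 lie farthest left, and 28 of 36 Cyp genes lie right of 0.

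Glutathione S-transferases conjugate reactive electrophiles with glutathione, and 14 of the 17 measured lay lower in stroma, as did 53% of all genes. Their median difference was -0.35, and 8 had an unadjusted p under 0.05, against 22.3% of all genes. Their median stayed between -0.41 and -0.23 under every alternative of processing tried. Gsta4, which conjugates hydroxynonenal from lipid peroxidation, read 7.17, 6.44 and 7.90 (log2) in wild type tumor, 6.33, 5.76 and 5.75 in wild type stroma, 5.43, 6.41 and 6.68 in deletion tumor and 5.59, 5.16 and 5.49 in deletion stroma. Every wild type stroma sample lay below every wild type tumor sample, while in the deletion group tumor 1 read as low as the stroma. The averaged difference was -0.99 ± 0.25 (SE), or 1.99-fold, with an adjusted p of 0.0540, and it was -0.65 when the spread of each array was a covariate.

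Gstk1, a kappa class enzyme of mitochondria and peroxisomes, read 5.31, 4.90 and 5.30 in wild type tumor, 4.68, 4.73 and 4.0 in wild type stroma, 4.84, 5.12 and 5.46 in deletion tumor and 4.70, 4.42 and 4.41 in deletion stroma. It was the only member whose 6 stroma samples all lay below its 6 tumor samples, which held for 1.33% of all genes, and the difference was -0.67 ± 0.17 (SE). Gsto1, an omega class enzyme, read 7.76, 7.65 and 8.13 in wild type tumor and 6.97, 7.01 and 6.81 in wild type stroma. In the deletion group it read 7.52, 7.63 and 8.35 in tumor and 7.79, 6.87 and 7.34 in stroma, where sample 1 lay within the tumor range. Its averaged difference was -0.71 ± 0.19 (SE), with an adjusted p of 0.0597, and -0.46 after quantile normalization.

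The pi class enzymes shared a direction. Gstp1 read 12.08, 11.70 and 11.12 in wild type tumor, 11.32, 10.89 and 10.96 in wild type stroma, 11.58, 11.74 and 11.76 in deletion tumor and 11.23, 10.78 and 11.28 in deletion stroma. Only wild type tumor 3 overlapped the stroma samples, and the difference was -0.59 ± 0.17 (SE), with an adjusted p of 0.0796. Gstp2 differed by -0.37 and Gstp3 by -0.46, with adjusted p of 0.184 and 0.149. Gstp1 and Gstp2 are near-identical in sequence, so their probe sets may share transcripts.

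Among the other classes, Gsta3 differed by -0.47 and Gstt3 by -0.32. The mu class genes Gstm1, Gstm2, Gstm3, Gstm4, Gstm6 and Gstm7 are a cluster of close relatives on chromosome 3, and their probe sets may share transcripts too. Their differences ran from -0.44 for Gstm7 to 0.07 for Gstm6. Gstt1, at 0.17, and Gsto2, at 0.10, were the other 2 Gst members above 0.

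Ugt2b34, the only Ugt member, attaches glucuronic acid. It read 6.14, 6.15 and 6.89 in wild type tumor and 4.79, 5.39 and 5.02 in wild type stroma, with no overlap. In the deletion group tumor read 5.20, 6.12 and 7.18 and stroma 6.28, 4.88 and 5.42, and these overlapped. The averaged difference was -0.98 ± 0.31 (SE), with an adjusted p of 0.0913.

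The cytosolic sulfotransferases were split. Sult1b1, which sulfates phenols and thyroid hormones, read 4.23, 4.16 and 4.89 in wild type tumor, 3.01, 3.45 and 3.04 in wild type stroma, 3.86, 4.07 and 5.22 in deletion tumor and 4.27, 3.64 and 3.85 in deletion stroma. Wild type stroma lay below all other groups. The difference between stroma and tumor was -1.26 ± 0.32 (SE) in wild type and -0.86 ± 0.23 (SE) averaged over genotypes, with adjusted p of 0.185 and 0.0602. The averaged value was -0.48 with the spread of each array as a covariate. Its neighbour Sult1d1, which sulfates catecholamines, differed by -0.59 ± 0.20 (SE). Sult1a1 and Sult4a1 lay on the other side of 0, at 0.28 each. For Sult4a1 this was 0.11 with array spread as a covariate, 0.14 without the 2 widest arrays and 0.17 with array weights.

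**Figure D2:**
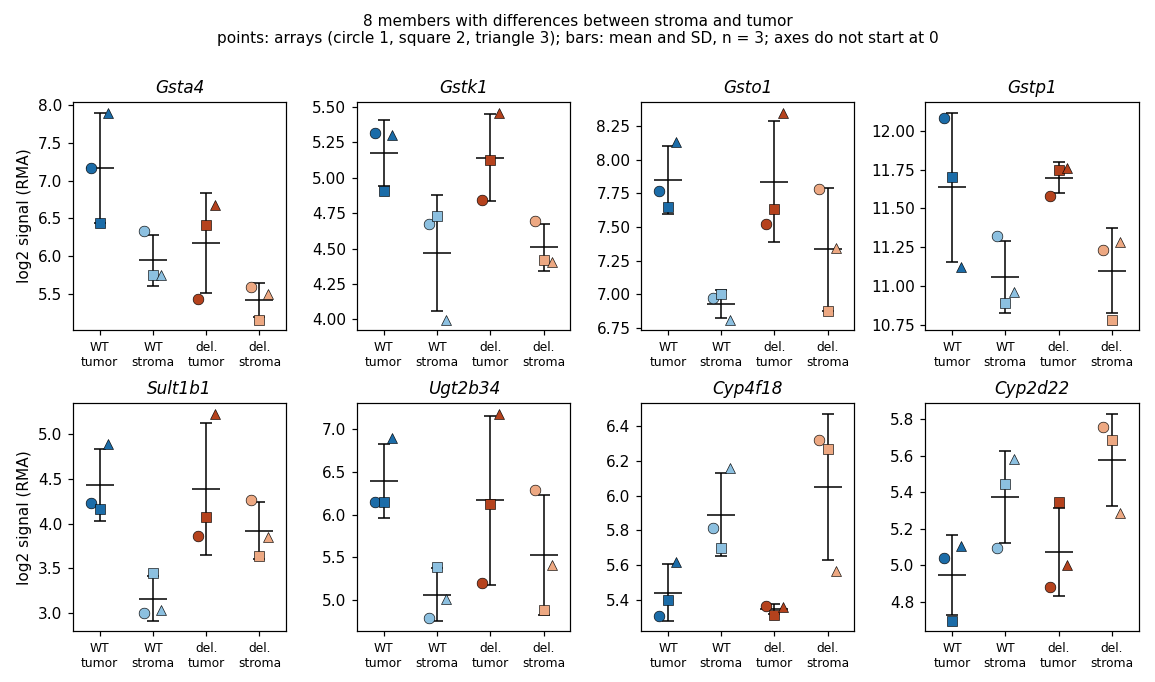
Log2 signal of 8 members in every array, with wild type (WT) and deletion (del.) groups by tissue; symbols mark the sample number, and bars give the mean and SD of 3 arrays. Gstk1 is the only one whose stroma samples all lie below its tumor samples; Cyp4f18 and Cyp2d22 lie the other way.

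Cytochromes P450 lay higher in stroma in 28 of 36 cases, against 47% of all genes, with a median of 0.17. But with the spread of each array as a covariate 19 of the 36 lay lower and the median was -0.02. Without the 2 widest arrays the median was 0.08. Their mean log2 level ran from 4.46 in wild type tumor to 4.74 in deletion stroma, close to the array medians of 4.20 to 4.43. A few P450s went the other way. Cyp2d34 read 6.40, 5.84 and 6.14 in wild type tumor, 4.55, 5.58 and 4.3 in wild type stroma, 6.40, 6.97 and 6.83 in deletion tumor and 7.11, 6.27 and 5.64 in deletion stroma. Wild type stroma again stood below the other groups, and the averaged difference was -0.86 ± 0.26 (SE), with an adjusted p of 0.0837. Cyp2j6, a relative of arachidonic acid epoxygenases, differed by -0.68 ± 0.23 (SE).

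Cyp4f18, which hydroxylates leukotriene B4 in neutrophils, was the P450 with the smallest p in the other direction. It read 5.30, 5.40 and 5.62 in wild type tumor, 5.81, 5.70 and 6.16 in wild type stroma, 5.36, 5.31 and 5.36 in deletion tumor and 6.32, 6.27 and 5.57 in deletion stroma. Stroma lay above tumor within each genotype, and the averaged difference was 0.58 ± 0.16 (SE), with an adjusted p of 0.0655. Cyp2d22 differed by 0.46 ± 0.15 (SE). Cyp2b9, at 0.54, Cyp2t4, at 0.47, and Cyp2j13, at 0.42, stood at 0.15, 0.16 and 0.20 with the array spread as a covariate.

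Several well-known P450s gave no clear difference between tissues. Cyp2e1, the activator of azoxymethane and ethanol, read 4.22, 4.60 and 3.75 in wild type tumor, 5.05, 4.56 and 4.40 in wild type stroma, 5.0, 4.53 and 4.07 in deletion tumor and 5.64, 5.0 and 4.24 in deletion stroma. The groups overlapped, and the difference was 0.45 ± 0.24 (SE). Cyp1b1, an enzyme for polycyclic hydrocarbons and estrogens, differed by 0.23, Cyp1a2, its relative, by 0.22, Cyp2s1 by -0.13, Cyp2f2, which activates naphthalene, by 0.16 and Cyp4b1 by 0.27.

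In the separate genotypes 0 members and 0 genes passed (0% in each). An unadjusted p under 0.05 was found for 10 members in wild type (16.4%, against 16.7% of all genes) and for 7 in the deletion (11.5%, against 9.67%). Stroma and tumor did not overlap for 14 members in wild type (23.0%, against 23.9%) and for 10 in the deletion (16.4%, against 13.7%). The sign was the same in both genotypes for 43 members (70.5%, against 69.6% of all genes). These shares lie near those of all genes. The interaction, which tests whether the tissue difference depends on genotype, called 0 members and 0 genes (0%), with 1 member, Cyp4v3, at an unadjusted p under 0.05 (1.64%, against 2.41%).

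The other genes of the pathway were counted from fixed lists. Of 43 partner and further enzymes, 32 lay lower in stroma, as did 53% of all genes, and 3 passed, all lower, against 2.55% of all genes. These were Txnrd1, a thioredoxin reductase, at -0.81 (adjusted p 0.0391), and the microsomal glutathione transferases Mgst2, at -0.72 (0.0403), and Mgst3, at -0.75 (0.0430). Of 16 transporters 6 lay lower and 1 passed, Slc22a18, an organic cation transporter, at -0.92 (0.0460). With each of the 12 arrays left out in turn, Txnrd1 and Mgst2 passed in 3 cases and Mgst3 and Slc22a18 in 4, with adjusted p of up to 0.120, 0.124, 0.127 and 0.136. Of 11 regulators 8 lay lower and 0 passed, with 2 at an unadjusted p under 0.05, against 22.3% of all genes. Nr1i2, which encodes PXR, differed by -0.85 and Hnf4a, a factor of gut and liver epithelium, by -0.54. The epithelial markers given above moved in the same direction as the Gst genes, with a median of -1.01, and the leukocyte markers in the opposite direction, with a median of 1.08. Their part in the differences of the members was not tested.

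Between genotypes, 0 of 61 members passed in stroma, in tumor or averaged over tissues. The members with the smallest p were Gstp3, Cyp2d34, Cyp4f40 and Sult1d1, with higher means in the deletion, and, on the other side, Gsta4 and Gstm7. Among all genes 0 passed in stroma (0%), 3 in tumor (0.018%) and 47 averaged over tissues (0.282%). The smallest adjusted p of a member was 0.368 in stroma and 0.104 averaged, and in tumor 0.423, for Cyp2d10, which passed the filter only through the deletion groups. An unadjusted p under 0.05 was found for 6 members in stroma, all higher (9.84%, against 3.13% of all genes higher). In tumor it was found for 7, Cyp2d10 among them (11.5%, against 6.26%), and averaged for 9 (14.8%, against 8.23%). Of these 9, 7 lay higher in the deletion, Cyp2d10 among them (11.5%, against 3.51%), and 2 lower (3.28%, against 4.71%). In all, 45 members had an averaged difference above 0 (73.8%, against 47.5% of all genes), with a median of 0.12, against -0.01. These were 26 of 36 Cyp, 12 of 17 Gst and 6 of 7 Sult members and Ugt2b34. The count below 0 was 16, and 22 with the array spread as a covariate. Leaving out deletion tumor 2 gave 1 passing member, Cyp4f40, at 1.13 with an adjusted p of 0.0457, against 28 of all genes.

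**Figure D3:**
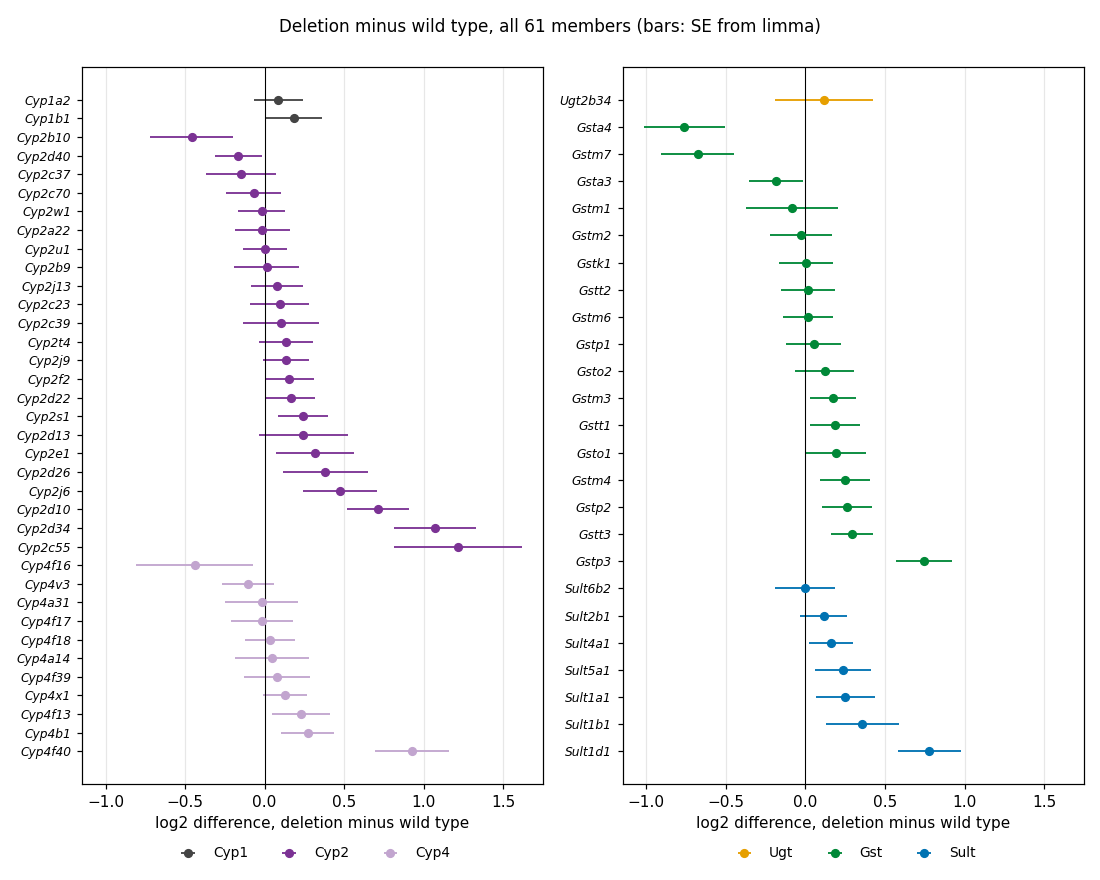
Log2 difference between deletion and wild type, averaged over tissues, for each of the 61 members, with bars for the standard error from limma; colours mark enzyme families. Cyp2c55, Cyp2d34, Cyp4f40, Sult1d1, Gstp3 and Cyp2d10 lie farthest right, and Gsta4 and Gstm7 farthest left.

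Gstp3 and Sult1d1 lay higher in the deletion in both tissues without overlap between genotypes. Gstp3 read 6.24, 6.02 and 5.54 in wild type tumor against 6.34, 6.72 and 7.07 in deletion tumor, and 5.31, 5.90 and 5.32 in wild type stroma against 6.08, 6.36 and 6.21 in deletion stroma. Each deletion sample lay above each wild type sample of its tissue, and the averaged difference was 0.74 ± 0.18 (SE), or 1.67-fold, with an adjusted p of 0.104. Without the 2 widest arrays its difference in tumor was 0.40 in place of 0.78. The neighbours did not move alike: Gstp1 differed by 0.05 ± 0.17 (SE) and Gstp2 by 0.26 ± 0.15 (SE).

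Sult1d1 read 4.23, 3.84 and 4.17 in wild type tumor against 5.12, 4.29 and 5.17 in deletion tumor. In stroma it read 3.77, 3.34 and 3.36 in wild type against 4.77, 4.18 and 3.86 in the deletion. The averaged difference was 0.78 ± 0.20 (SE), or 1.72-fold, with an adjusted p of 0.124, and with array weights the difference in tumor was 0.30. Sult1b1, next to it, differed by 0.75 ± 0.32 (SE) in stroma, without overlap, and by -0.04 in tumor. The interaction for Sult1b1 was 0.79 ± 0.46 (SE), with an adjusted p of 0.994.

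The Cyp2d genes are a cluster of close relatives whose probe sets may share transcripts. Cyp2d34, with the values given above, lay higher in the deletion by 1.53 ± 0.37 (SE) in stroma, or 2.89-fold, and by 1.07 ± 0.26 (SE) averaged, with adjusted p of 0.368 and 0.112. Its genotypes did not overlap in either tissue, although the highest wild type and the lowest deletion tumor both read 6.40 to 2 decimals. The highest deletion stroma value of Cyp2d34, 7.11, was that of sample 1, whose epithelial marker mean lay in the tumor range. The part of that sample's epithelial signal in the difference was not tested. Cyp2d10 read 3.53, 3.24 and 3.93 in wild type tumor against 4.3, 4.56 and 4.67 in deletion tumor, and 3.17, 3.45 and 3.72 in wild type stroma against 4.50, 3.87 and 3.40 in deletion stroma. The tumors did not overlap and the stroma samples did. In both wild type groups the mean of Cyp2d10 lay below the filter, which it passed only through the deletion groups, so its averaged difference of 0.71 is a description with no test. Cyp2d40, between Cyp2d34 and Cyp2d26 on chromosome 15, differed by -0.17, and Cyp2d26 by 0.38.

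Cyp4f40, of a family that hydroxylates fatty acids and eicosanoids, read 4.98, 4.33 and 4.84 in wild type tumor against 6.0, 4.78 and 5.95 in deletion tumor, and 4.72, 4.01 and 4.17 in wild type stroma against 5.56, 4.87 and 5.45 in deletion stroma. The stroma samples did not overlap, and in tumor only sample 2 of the deletion lay in the wild type range. The averaged difference was 0.93 ± 0.23 (SE), or 1.90-fold, with an adjusted p of 0.123, and in tumor it was 0.16 with array weights in place of 0.86.

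Cyp2c55, which hydroxylates arachidonic acid, had the largest averaged difference of the members and the largest spread within groups. It read 4.50, 4.45 and 3.95 in wild type tumor, 3.97, 4.03 and 3.78 in wild type stroma, 6.16, 4.75 and 4.22 in deletion tumor and 7.15, 5.42 and 4.28 in deletion stroma. Within the deletion group sample 1 was highest and sample 3 lowest in both tissues. A list of 6 liver markers, 0 of which passed between genotypes (1 at an unadjusted p under 0.05), also had its highest mean there in sample 1, with 5.51, 4.75 and 4.96 in deletion tumor and 5.85, 4.72 and 4.87 in deletion stroma, and 5.60 in wild type stroma 1. Its part in the result was not tested. The averaged difference was 1.22 ± 0.40 (SE), or 2.32-fold, with an adjusted p of 0.300, and in stroma the difference of 1.69 was 0.92 without deletion stroma 1. A dimmer second probe set of Cyp2c55 gave 2.10 averaged over tissues, from means of 3.61 and 3.45 in wild type tumor and stroma and of 5.04 and 6.23 in the deletion.

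**Figure D4:**
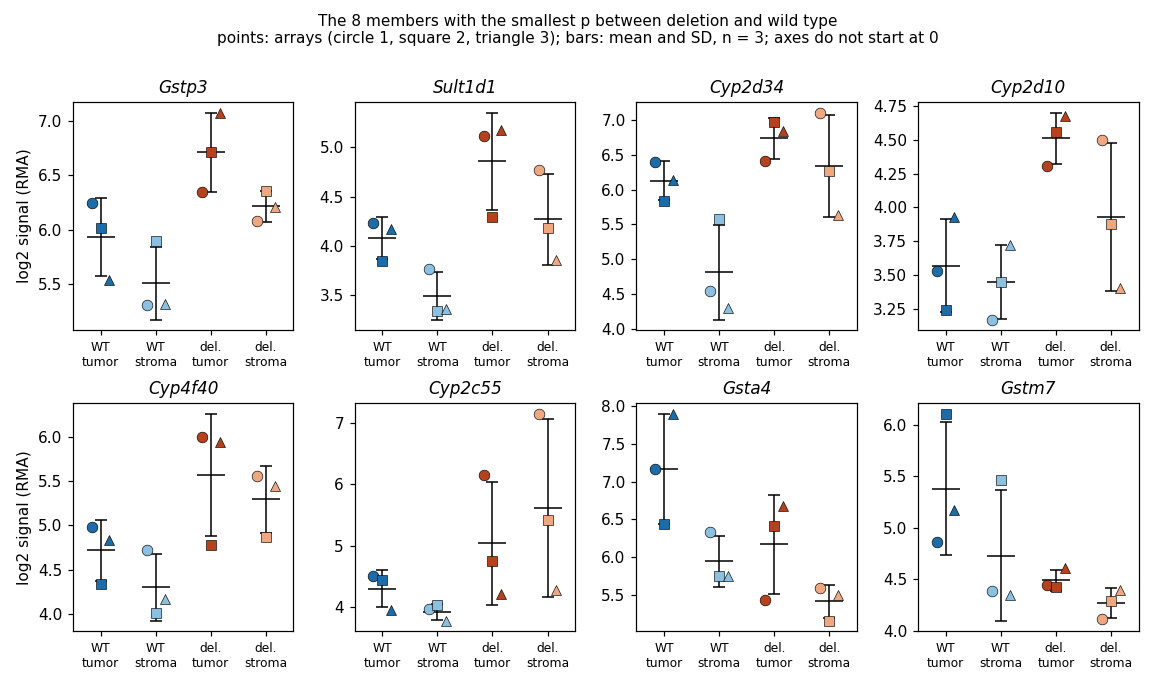
Log2 signal of the 8 members with the smallest p between genotypes in every array, by genotype (WT, wild type; del., deletion) and tissue; symbols mark the sample number, and bars give the mean and SD of 3 arrays. Deletion samples of Gstp3 and Sult1d1 lie above wild type in each tissue, Cyp2c55 spreads from 4.22 to 7.15 within the deletion, and Gstm7 is high in both wild type samples numbered 2.

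Gsta4 and Gstm7 lay lower in the deletion. For Gsta4, whose values are given above, the averaged difference was -0.76 ± 0.25 (SE), with an adjusted p of 0.308. In tumor it was -0.99, and -0.63 without wild type tumor 3 or -0.62 without deletion tumor 1. In stroma it was -0.53, and -0.34 without wild type stroma 1. Gstm7 read 4.86, 6.11 and 5.18 in wild type tumor against 4.44, 4.42 and 4.61 in deletion tumor, and 4.39, 5.46 and 4.35 in wild type stroma against 4.12, 4.29 and 4.40 in deletion stroma. Both wild type samples numbered 2 were high. The averaged difference of Gstm7 was -0.68 ± 0.23 (SE), with an adjusted p of 0.315, and without these samples it was -0.53 in place of -0.89 in tumor and -0.10 in place of -0.46 in stroma.

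Other members had small differences. Gstt3 differed by 0.29 ± 0.13 (SE), and Cyp2j6, in stroma without overlap, by 0.47 ± 0.23 (SE) averaged. Cyp2b10, a target of the receptor CAR, differed by -0.46 ± 0.26 (SE), and by -0.31 without wild type tumor 2 or -0.23 without wild type stroma 1. The averaged differences of Cyp2e1, at 0.32, Cyp1b1, at 0.19, Ugt2b34, at 0.12, and Gsto1, at 0.19, were all under 1.5 times their standard errors. Genotypes did not overlap for 8 members in stroma (13.1%, against 10.8% of all genes) and for 11 in tumor, Cyp2d10 among them (18%, against 9.52%). Averaged over tissues this held for 0 (0%, against 0.534%). The sign was the same in both tissues for 35 members (57.4%, against 54.1%), 27 of them higher in the deletion and 8 lower.

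Of the pathway lists, 0 genes passed limma's test between genotypes averaged over tissues. An unadjusted p under 0.05 was found for 1 of 11 regulators, 7 of 43 partner enzymes and 2 of 16 transporters, against 8.23% of all genes. A difference above 0 was found for 47.5% of all genes. Of 11 regulators 8 lay higher, and Ahr, the aryl hydrocarbon receptor itself, differed by -0.62 ± 0.17 (SE), with an adjusted p of 0.182. Of 43 partner and further enzymes 26 lay higher, led by the carboxylesterase Ces2e at 1.18, the carbonyl reductase Cbr3 at 0.74 and the alcohol dehydrogenase Adh1 at 0.93, with adjusted p of 0.136, 0.146 and 0.157. Of 16 transporters 9 lay higher, and Abcc2, an exporter of conjugates, differed by -0.68.

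Markers of differentiated colonocytes lay higher in the deletion beside these members. Of 13 such markers 11 lay higher, with a median of 0.72, and 2 passed, Car4, a carbonic anhydrase, at 2.58 (adjusted p 0.0184) and Slc26a3, a chloride exchanger, at 1.85 (0.0363). Among all genes 47.5% lay higher averaged over tissues, 8.23% had an unadjusted p under 0.05 and 0.282% passed. With single arrays left out Car4 passed in 12 of 12 cases and Slc26a3 in 3. The mean log2 level of the list was 5.83 to 6.19 in wild type tumor, 5.19 to 5.45 in wild type stroma, 6.43 to 6.89 in deletion tumor and 5.58 to 7.97 in deletion stroma. In deletion stroma the list read 7.97, 6.11 and 5.58. Cyp2c55, Cyp2d34, Sult1d1 and Cyp2d10 had the same order of samples there, and Gstp3 and Cyp4f40 did not. These members were picked for a small p between genotypes, and the share of all genes with that order was not counted. In deletion tumor the list read 6.89, 6.43 and 6.51, highest in sample 1. There Cyp2c55 and Cyp4f40 were highest in sample 1, Cyp2d34, Cyp2d10 and Gstp3 were lowest in it, and Sult1d1 was highest in sample 3. All 8 goblet cell markers lay higher, with 0 passing, 6 at an unadjusted p under 0.05 and a median of 0.63. All 10 leukocyte markers lay higher, with 0 passing, 6 at an unadjusted p under 0.05 and a median of 0.47. Of 14 epithelial markers 10 lay higher, with a median of 0.17, and 1 passed, lower in the deletion: the tight junction gene Cldn4, at -1.49 (0.0241), which passed in 8 of 12 cases with single arrays left out. The mean of the epithelial list was 8.98 in wild type and 8.92 in deletion tumor, and 7.86 and 7.96 in stroma. The leukocyte list had a mean of 6.92 to 7.48 in deletion stroma against 5.80 to 6.85 in wild type stroma. The part of cell composition in the differences of the members was not tested.

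**Figure D5:**
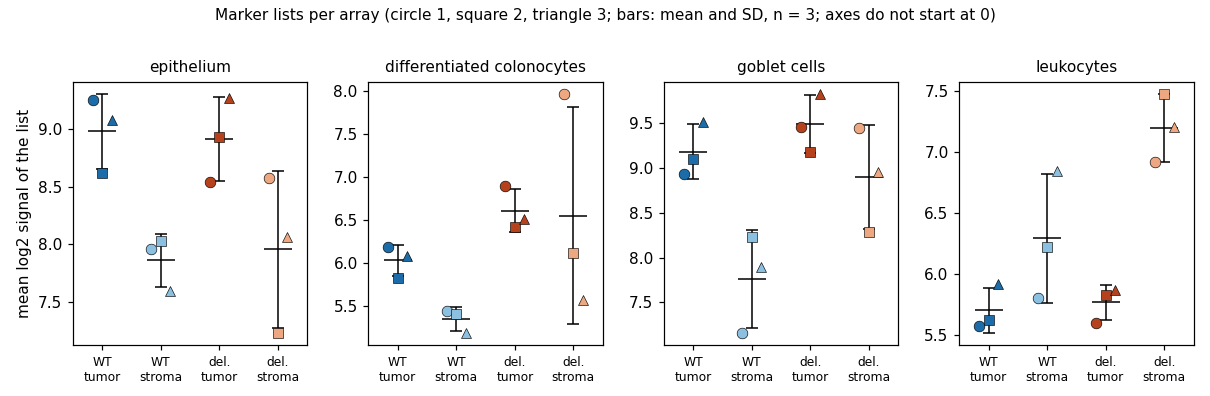
Mean log2 signal of 4 lists of cell type markers in every array, by genotype (WT, wild type; del., deletion) and tissue; symbols mark the sample number, and bars give the mean and SD of 3 arrays. Epithelial markers are lower in stroma, colonocyte markers reach 7.97 in deletion stroma 1, and leukocyte markers are highest in deletion stroma.

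The spread within groups sets what 3 samples can show. The pooled SD of a member within groups had a median of 0.32, against 0.30 for all genes, and was under 0.5 for 51 of the 61 members. It was smallest for Gstt3, at 0.16, and largest for Cyp2c55, at 0.89, Cyp4f16, at 0.81, and Ugt2b34, at 0.66. The standard error of an averaged difference thus ran from 0.13 for Gstt3 to 0.40 for Cyp2c55. The number of arrays limits the precision, and a member that did not pass may still differ. The 95% confidence interval of the averaged genotype difference was 0.37 to 1.12 for Gstp3 and 0.36 to 2.07 for Cyp2c55. These members were picked for the smallest p and the largest difference. The intervals allow neither for that choice nor for the number of genes tested, and with adjustment neither member passed.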

How the data were processed

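Gene expression was measured on 12 single-colour Affymetrix arrays, 4 groups of 3 samples. The authors deposited log2 values for 41345 probe sets. The submitters' processing notes name RMA (robust multi-array average) and Affymetrix Expression Console 1.3.1. Because RMA fits all arrays together, a few unusual arrays can shift all values. The sources used here do not give the genome build behind the probe sets, and detection calls or scanner values were not used.

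Probe sets were named from the platform annotation: 23521 had 1 symbol, 1814 several and 16010 were not listed. RefSeq (GRCm38.p6) changed 0 symbols. The probe set with the highest mean stood for each gene, and 25% of genes, below 3.65, were left out. A model of 4 group means over all 12 arrays was then fitted per gene (limma 3.58.1, R 4.3.3). The 7 contrasts were tested with eBayes and Benjamini-Hochberg adjustment over 16654 genes at 0.05. The code was tested on simulated data. Differences are log2, and folds are their powers of 2.

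Named members were the fixed set of well-known colon enzymes, the 6 with the smallest p in each direction of a contrast, the extremes of each family, and those next to the filter. Genome neighbours of these, Ahr, Abcc2 and the leading partner enzymes between genotypes were named after their values were seen. Members and lists were chosen with earlier results of these data known, and TGANTCA was chosen after the sequences were read.

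Alternatives were quantile normalization, median centring, 2 other filters, means over probe sets, array weights (gene by gene, since the default did not converge), array spread as a covariate, replicate blocks, leaving out arrays, and trended robust moderation. The labels do not say that sample numbers pair samples. Deviations of same-numbered samples from their group means correlated at 0.123 to 0.298 between deletion tumor and stroma and at 0.149 to 0.692 between wild type and deletion tumor, all over 0.1. Between wild type tumor and stroma the values were 0.439, -0.00418 and 0.512 for numbers 1, 2 and 3. Between wild type and deletion stroma they were 0.152, -0.0404 and 0.113.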

Additional observations from a re-analysis of the deposited data

How the results depend on the processing

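The count of passing members was 0 in all 7 comparisons and moved as follows. For stroma against tumor averaged over genotypes it was 2 after quantile normalization (440 of all genes) and 16 with array weights (2641). It was 2 among genes above the median mean level, where 28 members were tested and 482 genes passed. With single arrays left out it was 0 to 5 (0 to 1297 of all genes). With the number as a fixed replicate block it was 11, and with genotype and number as a random or a fixed block 10 each; these blocks raised the calls over all genes from 424 to between 1649 and 2187, and without the 2 widest arrays 0 genes passed. In wild type it was 9 with array weights (1021 of all genes) and 1, Sult1b1, with the number as a block (304 of all genes). In the deletion it was 2 with array weights (609 of all genes). For deletion against wild type with array weights it was 1 in tumor (Cyp2d10) and 2 averaged over tissues (Cyp2d10 and Gstp3). Over all genes 304 and 430 passed there. Cyp2d10 passed the filter only through the deletion groups, so these calls of it are no test. Averaged, the count was 5 with the number as a block (Cyp2c55, Cyp2d34, Cyp4f40, Gstp3 and Sult1d1), against 292 of all genes. With single arrays left out it was 0 to 1, against 16 to 69 of all genes. The blocks changed no call of a member in the 2 comparisons whose same-numbered samples all correlated over 0.1. These were stroma against tumor in the deletion and deletion against wild type in tumor. Over all genes the calls rose from 0 to between 62 and 152 in the first. In the second they rose from 3 to 89 with the number as a block. Why the array weights and blocks add calls was not tested. Over all genes, calls between tissues were 2641 with array weights, 264 with array spread as a covariate and 168 after median centring. Averaged over tissues, calls between genotypes were 47, and 430, 166 and 17 in the same settings. A selection of single-member values, not all members in all comparisons, was followed through these settings. Of these values 1 reversed, Cyp4f16 between genotypes in tumor. It stood at -0.39 with all arrays, 0.10 without wild type tumor 3 and -0.88 without deletion tumor 3. Another 67 newly passed and 1588 kept their direction and call. Signs moved more widely than this selection shows: between tissues 26 of 61 members lay below 0, and 41 with array spread as a covariate. Median centring moved the median of all genes to -0.14 between tissues in wild type. With 3 samples a group, small differences of dim genes could not be resolved.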

Other observations

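Probe sets listed with several symbols hold further enzymes of these families, which the choice of single-symbol probe sets left out, and they entered no test. There were 15 such probe sets. The brighter of 2 probe sets naming several Ugt1a genes, the main intestinal glucuronosyltransferases, which share exons, had log2 means of 6.04 ± 0.04 (SD, n = 3) in wild type tumor, 6.26 ± 0.15 in wild type stroma, 6.61 ± 0.57 in deletion tumor and 6.84 ± 0.59 in deletion stroma. The dimmer one read 3.71, 3.88, 4.32 and 4.3 in the same order. In both the deletion means lay above the wild type means.

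A probe set shared by Gstp1 and Gstp2 had means of 8.82 ± 0.40, 8.0 ± 0.51, 8.53 ± 0.44 and 7.74 ± 0.34 in that order, and 1 naming Gsta1 and Gsta2 read 6.31 ± 0.35, 5.20 ± 0.92, 6.57 ± 0.54 and 5.53 ± 0.30. The stroma means lay below the tumor means in both genotypes. A probe set naming Gstm5 and an unnamed transcript read 7.33 ± 0.20 in wild type tumor, 6.0 ± 0.95 in wild type stroma, 6.22 ± 0.68 in deletion tumor and 5.50 ± 0.04 in deletion stroma, with the wild type tumor mean above the other groups.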
